A study of Rattus norvegicus with 24 samples.

Results

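ENSRNOT00000010634, ENSRNOT00000012381, ENSRNOT00000009705 and ENSRNOT00000033784 are 4 of the 22938 rat transcripts counted in every library, and each had few or no counts in the liver of at least one age. They were chosen by identifier with earlier results of these data in view, for low counts in liver that differed between old and young animals unlike in brain. All 4 were among the transcripts whose age effect in RNA-seq was called different between the organs. The liver counts and the contrasts of the ages are therefore a description. Where calls of a fit over all transcripts are counted among the members for these contrasts, the choice of the members had favoured them, and they are no evidence about the members. RNA-seq and ribosome profiling were made from the brain and the liver of 3 young rats (Rattus norvegicus, 6 months) and 3 old rats (24 months), so that each of the 6 animals gave 4 libraries and each of the 8 groups held 3. The labels name no strain, sex or treatment, and the animals carry no stated genetic change. Brain and liver are whole-tissue samples, in which fewer cells of a type and less RNA per cell cannot be told apart.

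RNA-seq counts report how much of a transcript is present. Ribosome profiling counts report the short mRNA pieces (footprints) that a translating ribosome shields from RNase I, so a footprint count depends on both the amount of the transcript and how densely ribosomes occupy it. Brain and liver share a large housekeeping transcriptome and each adds transcripts that the other organ holds only in traces. For such traces a handful of reads decides the value, and the counts themselves are the measurement. The identifiers are Ensembl transcript names. The files do not pair them with gene names, and 0 of the 22938 were found in the rat gene table of assembly GRCr8, so gene functions, positions and sequences are not given here.

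The RNA-seq libraries held 14281043 to 28664906 counts each, and the ribosome profiling libraries 5259326 to 17584871. Levels are CPM, counts brought to a common library total, scaled by TMM factors within an organ and assay. The organ labels of the old and the footprint libraries were checked with 2 sets, members left out. These were 50 abundant transcripts enriched at least 32-fold in young brain over young liver RNA-seq, and 50 enriched the other way. Both sets were chosen on the young RNA-seq levels, so their values in young RNA-seq follow from that choice and check no label there. The liver-enriched set summed to 84.2% to 148% of its young liver level in the liver libraries and to 0.096% to 0.392% in 10 of the 12 brain libraries. In the brain of old animal 2 it reached 5.11% in RNA-seq and 6.02% in ribosome profiling. The brain-enriched set summed to 0.532% to 0.594% of its young brain level in young liver RNA-seq and 0.61% to 0.741% in old, and to 0.427% to 0.448% and 0.486% to 0.589% in the footprints of young and old liver.

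ENSRNOT00000010634 was a brain transcript with a liver trace that was found in young animals only. Its counts in young liver RNA-seq were 5, 8 and 11, and in old liver 0, 0 and 0. Every young library held reads and no old one did, although the old libraries were the deeper ones. At the young rate the old liver libraries together would have held 31.3 counts. With 3 counts over the group as the floor for a count of 0, and the young counts taken as exact, the level was at least 10.4-fold lower in old liver. That bound lay between 6.60 and 12.5 when each library was left out in turn, and was lowest without old animal 3 (6.60), old animal 1 (6.86) or old animal 2 (7.38).

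Liver footprints of ENSRNOT00000010634 numbered 0, 2 and 0 in young and 0, 0 and 0 in old animals, so both ages were at or under the floor and no ratio was formed. In brain the same transcript was steady. RNA-seq counts were 729, 724 and 730 in young brain and 870, 759 and 709 in old brain, which is 48.0 ± 1.07 and 48.5 ± 1.10 CPM (SD, n = 3). Brain footprints were at 37.2 ± 1.54 CPM in the young animals against 33.6 ± 1.0 CPM in the old, with every old library below every young one. The young liver level was 0.847% of the young brain level in RNA-seq. With scaling factors computed over both organs together that share was 2.01%.

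ENSRNOT00000009705 was the most counted of the 4, with 65407 counts over all libraries, and almost all of them came from brain. Its counts in young liver RNA-seq were 21, 52 and 46, and in old liver 7, 3 and 10. In liver footprints they were 13, 38 and 48 in young and 2, 4 and 3 in old animals. All old liver libraries lay below all young ones in both assays, and young animal 1 was the lowest young animal in both. Mean RNA-seq levels were 2.01 ± 0.851 CPM in young liver against 0.250 ± 0.110 CPM in old, and mean footprint levels 2.18 ± 0.903 against 0.227 ± 0.0826 CPM (SD, n = 3). Over summed counts the old liver level was 7.75-fold lower in RNA-seq (95% exact counting interval 4.80 to 13.1) and 10.3-fold lower in footprints (5.22 to 23.2).

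In brain ENSRNOT00000009705 had RNA-seq levels of 352 ± 21.5 CPM (young) and 321 ± 5.35 CPM (old), from counts of 4983, 5516 and 5525 and of 5747, 5066 and 4663. Its brain footprints were at 629 ± 23.5 CPM in the young animals against 531 ± 10.5 CPM in the old. The ages did not overlap in either assay, but the step was small beside that in liver, with ratios of old to young of 0.912 in RNA-seq and 0.846 in footprints. In order of level, young brain was above old brain, old brain above young liver and young liver above old liver in both assays, and no neighbouring pair overlapped. The liver level was 0.572% of the brain level in young and 0.0780% in old RNA-seq, or 1.36% and 0.183% with scaling factors over both organs.

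**Figure D1:**
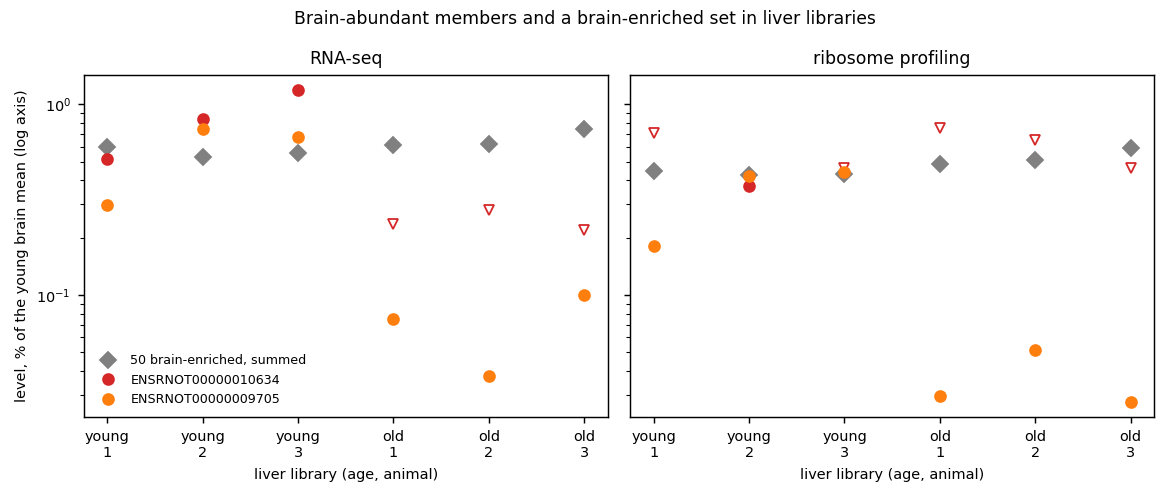
Level of ENSRNOT00000010634 (red), ENSRNOT00000009705 (orange) and the summed set of 50 brain-enriched transcripts (grey diamonds) in each liver library, as a percentage of the young brain mean on a log axis, with RNA-seq on the left and ribosome profiling on the right. Open triangles mark the limit that a library with 0 counts allows (3 counts). The grey set lies between 0.427% and 0.741% in all 12 libraries, while the orange points of old animals lie below those of every young animal.

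Both ENSRNOT00000010634 and ENSRNOT00000009705 were themselves more than 32-fold enriched in young brain, as were 3680 of all transcripts. The summed level of the brain-enriched set beside them was higher in each old liver library than in each young one in both assays. That set was chosen partly for low levels in young liver RNA-seq, which favours this order in RNA-seq. The median over its 50 transcripts overlapped between the ages, at 0.0953% to 0.154% (young liver) and 0.0827% to 0.144% (old liver) of its young brain value in RNA-seq, and at 0.0939% to 0.181% and 0.068% to 0.183% in footprints. In an RNA-seq library 8 to 10 of the 50 were at 0 in young and 4 to 8 in old liver, and in a footprint library 11 to 12 and 7 to 14. The plot of liver levels against the brain-enriched set shows the sum for each library.

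ENSRNOT00000012381 was a low transcript in both organs, and its old liver counts were the exception. In young liver RNA-seq it had 41, 31 and 22 counts, and in old liver 1, 0 and 2. The young brain counts were 16, 23 and 39, and the old brain counts 24, 18 and 13. The mean levels of young brain (1.72 ± 0.806 CPM), young liver (1.58 ± 0.445 CPM) and old brain (1.12 ± 0.233 CPM) overlapped as neighbours, whereas old liver (0.0361 ± 0.0353 CPM, SD, n = 3) lay below all of them. The nearness of young liver and young brain depends on the scaling. With factors over both organs their means were 2.42 and 1.11 CPM, and those of old liver and old brain 0.0556 and 0.737 CPM. At the young rate 122 counts would have been seen in the old liver libraries, where 3 were. The ratio of young to old was 40.8 with a counting interval of 13.5 to 201. It was 77.5 without old animal 3 and between 28.9 and 46.3 without any one of the other 5 libraries.

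Footprints of ENSRNOT00000012381 in liver were 7, 27 and 13 in young and 2, 6 and 0 in old animals. The groups did not overlap, and the level was 5.51-fold lower in old liver (counting interval 2.58 to 13.5). That ratio was 15.3 without old animal 2 and lowest, at 3.15, without old animal 3. It was 3.52 without young animal 2. The counting interval leaves out the spread between animals. The transcript did not pass the filter in liver footprints. With no filter edgeR gave a log2 fold change of -2.32 (SE 0.939) and no call (adjusted p = 0.363). In brain the footprints were 27, 3 and 22 in young and 0, 9 and 16 in old animals, and these ranges overlapped. The ratio of old to young brain footprints was 0.460 over all libraries, 0.239 without old animal 3 and up to 0.604, without old animal 2. In brain RNA-seq it was 0.666 (counting interval 0.463 to 0.952), from groups that also overlapped.

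ENSRNOT00000033784 ran the other way, being nearly absent from young liver and present in every old liver library. Its RNA-seq counts were 0, 0 and 6 in young liver and 28, 45 and 99 in old liver. Its footprints were 4, 1 and 0 in young liver and 13, 13 and 67 in old liver. The ages did not overlap in either assay, and old animal 3 held the most reads in both. Summed counts gave a level 22.0-fold higher in old liver RNA-seq (counting interval 9.91 to 60.8) and 19.8-fold higher in footprints (8.20 to 62.5). All 6 young RNA-seq counts came from animal 3. Without that animal the level was at least 29.7-fold higher by the floor of 3 counts, with the old counts taken as exact. The ratio with old animal 3 left out was 14.8 in RNA-seq and 9.68 in footprints, and with young animal 1 left out it was 14.5 and 73.0, the last from a single young count. It was 14.7 in RNA-seq without young animal 2, and 11.9 in footprints without young animal 3.

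In brain ENSRNOT00000033784 was also a trace. RNA-seq counts were 19, 20 and 16 in young and 8, 11 and 10 in old brain, a mean of 1.21 ± 0.117 and 0.609 ± 0.135 CPM (SD, n = 3), with no overlap. Old liver RNA-seq, at 2.18 ± 1.23 CPM, overlapped with young brain as the next lower group. This overlap is given for scaling within each organ. With scaling factors over both organs the means lay further apart, at 3.35 CPM in old liver and 0.780 CPM in young brain. Footprints in brain were 2, 2 and 3 in young and 0, 16 and 5 in old animals, which overlapped. The 16 counts were in old animal 2, whose brain libraries carried the most of the liver-enriched set (6.02% in this library). The level there was 1.06 CPM, and in the liver footprints of the same animal it was 1.05 CPM. Without that library the old to young ratio of brain footprints was 1.40 (counting interval 0.351 to 5.13), against 2.87 (1.17 to 7.99) with it. These intervals leave out the spread between animals. The edgeR fit with no filter, old animal 2 included, gave a log2 fold change of 1.09 (SE 1.35, adjusted p = 0.778). The part of the liver-enriched signal in the 16 counts of old animal 2 was not tested.

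**Figure D2:**
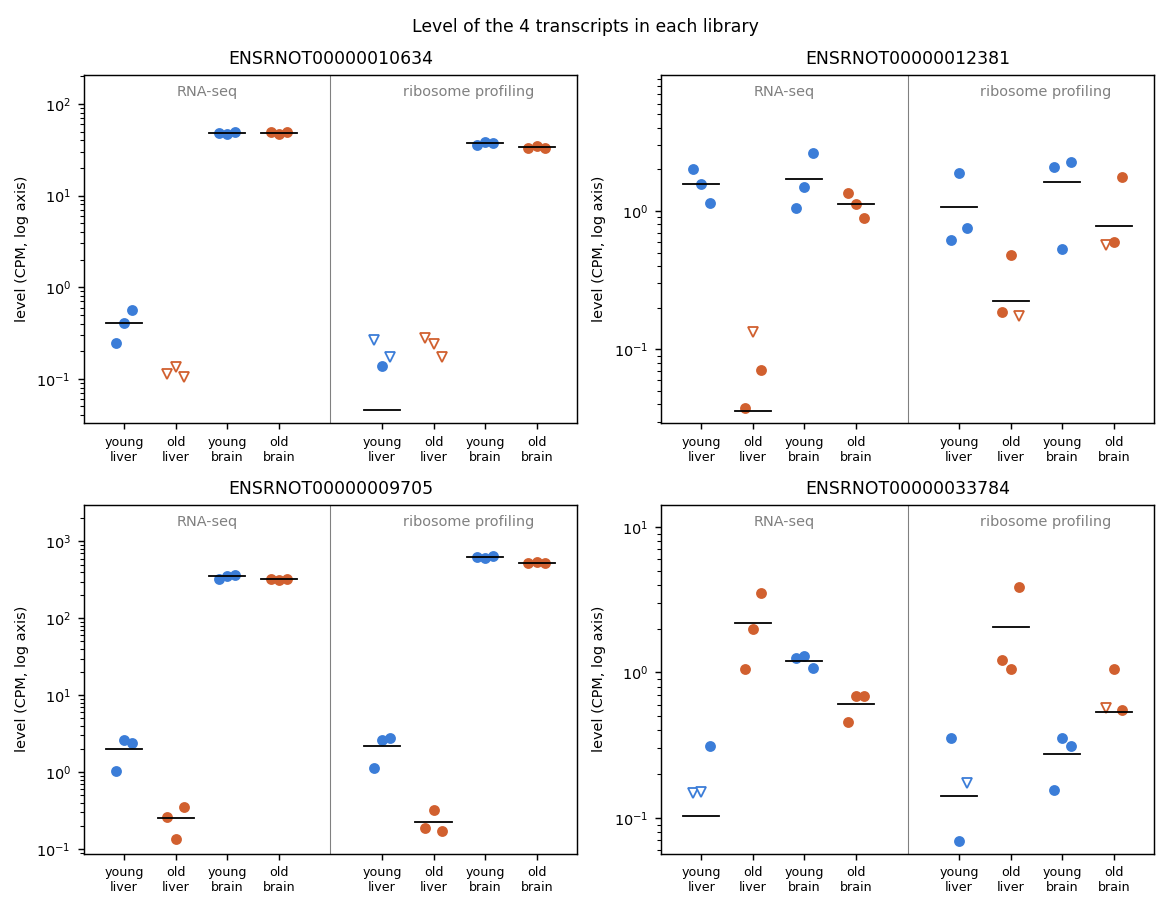
CPM of the 4 transcripts in each library on a log axis, young in blue and old in orange, with the group mean as a black line; open triangles mark libraries with 0 counts at the limit that 0 counts allow (3 counts). In RNA-seq the old liver points lie apart from the young liver points in every panel, below them in 3 panels and above them in ENSRNOT00000033784.

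**Figure D3:**
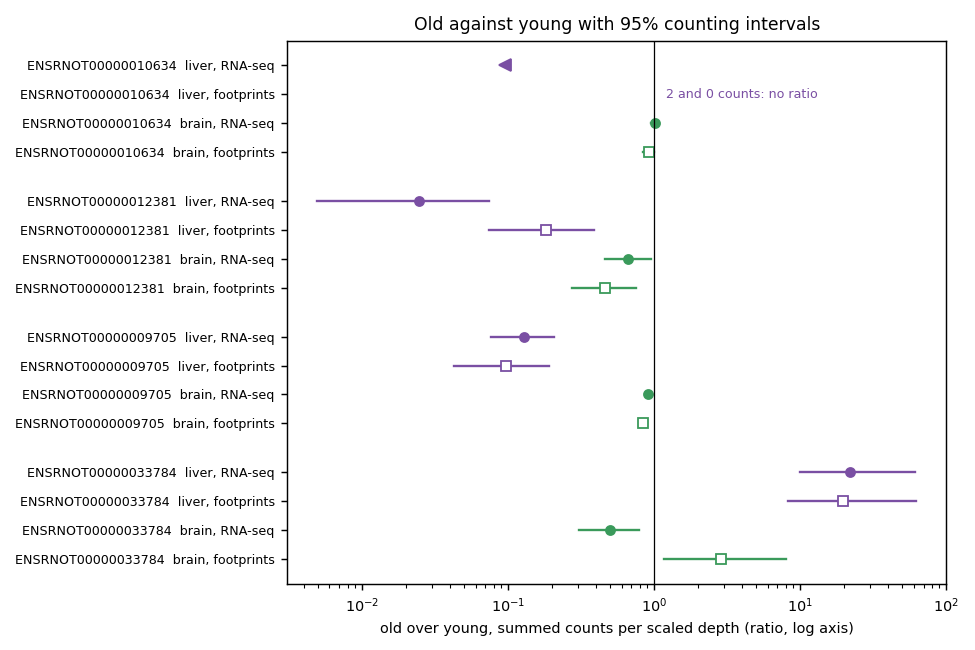
Ratio of old to young level over summed counts for each transcript, organ and assay on a log axis, with 95% exact counting intervals, liver in purple and brain in green, RNA-seq as filled circles and footprints as open squares. The purple arrowhead is an upper bound for a group at 0 counts, with the counts of the other group taken as exact. In liver the footprints of ENSRNOT00000010634 gave no ratio. The intervals cover counting error only and leave out the spread between animals.

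Across the 4 members in liver RNA-seq, 3 were lower in every old library than in every young one and 1 was higher in every one. Of the 3 that passed the filter on low counts (ENSRNOT00000010634 did not), 2 were lower and 1 higher. Of all 12198 transcripts that passed, 15.4% lay lower without overlap and 14.3% higher. In liver footprints 2 members were lower and 1 higher without overlap, of which 1 and 1 passed the filter, against 9.56% and 9.12% of all. In brain, 2 members were lower without overlap and 0 higher in RNA-seq, where all 4 passed, against 9.87% and 9.38% of all. In brain footprints 2 were lower and 0 higher, both among the 3 that passed, against 9.84% and 9.6%. Since the members were picked for differing between the ages, nothing follows from these counts.

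Still as a description, by edgeR's quasi-likelihood fit no member was called between the ages in liver at an adjusted p under 0.05. This held for the 3 members fitted in RNA-seq, where 0.0164% of all transcripts were called, and for the 2 fitted in footprints, where 0.0176% were. Each of these had an unadjusted p under 0.05, as did 2819 of all 12198 transcripts in RNA-seq and 1390 of 11396 in footprints. DESeq2 called each of them, where it called 1083 and 221 of all. With no filter on low counts edgeR called ENSRNOT00000012381 and ENSRNOT00000009705 in RNA-seq, among 143 of 15855. In footprints it then called ENSRNOT00000009705, among 53 of 14987. Fitted log2 fold changes in RNA-seq were -5.17 (SE 0.597) for ENSRNOT00000012381, -2.95 (SE 0.496) for ENSRNOT00000009705 and 4.36 (SE 0.962) for ENSRNOT00000033784. The median over all tested was 0.01. Footprints gave -3.25 (SE 0.578) for ENSRNOT00000009705 and 4.02 (SE 0.939) for ENSRNOT00000033784. Without old animal 3 edgeR called ENSRNOT00000012381 in RNA-seq (log2 fold change -5.92), and without young animal 1 also (-4.94). It called ENSRNOT00000009705 without young animal 1 in both assays (-3.26 and -3.54). Of all transcripts 35 were called without old animal 3 in RNA-seq, and 641 and 96 without young animal 1 in RNA-seq and footprints.

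The liver ratios can be set beside those of transcripts with 20 to 200 summed counts in young liver RNA-seq, a range chosen after the values were seen. The members were picked for their liver difference, so a place at the edge follows from the choice and is given as a description only. There were 2939 such transcripts besides the members, with a median log2 ratio of old to young of 0.10 (0.5 added to each summed count), and 0 of them had 0 counts in old liver. As low as the bound for ENSRNOT00000010634, a log2 ratio of -3.38 from the floor of 3 counts, were 6 of them. The count was 0 for ENSRNOT00000012381 (-5.14) and 12 for ENSRNOT00000009705 (-2.92), which is 0.408%. Among the 423 that were brain-enriched the median was -0.01, with 3 as low as the bound for ENSRNOT00000010634 and 6 as low as ENSRNOT00000009705.

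In liver footprints 3654 other transcripts had 20 to 200 young counts, and 5 of these had 0 counts in old liver. As low as ENSRNOT00000012381 (-2.39) were 17 of them, and as low as ENSRNOT00000009705 (-3.30) were 7. ENSRNOT00000033784 was set beside the 9597 transcripts with 6 or fewer counts in young liver RNA-seq, of which 2134 had any count in old liver and 3 reached at least its 172 counts. In footprints 10065 had 5 or fewer young counts, and 3 reached at least its 93.

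**Figure D4:**
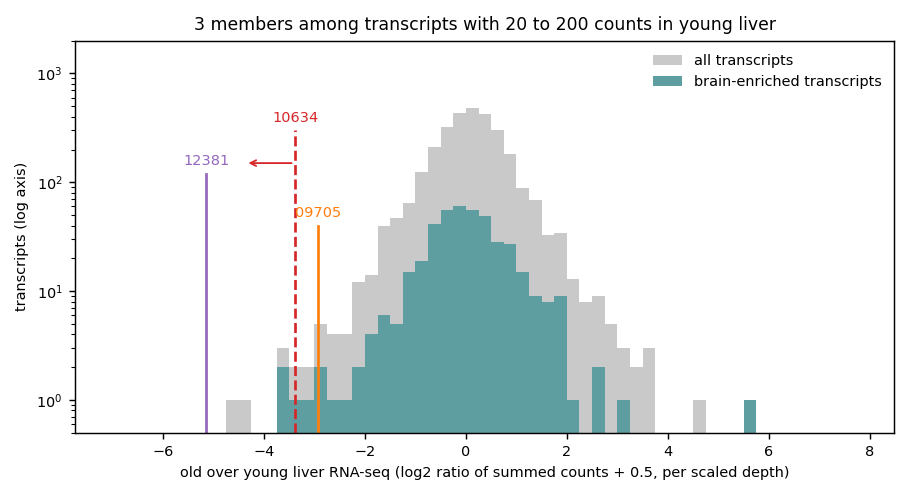
Log2 ratio of old to young liver RNA-seq for 2939 transcripts with 20 to 200 summed counts in young liver (grey) and the 423 of them that are brain-enriched (teal), with the number of transcripts on a log axis. Coloured lines, whose height has no meaning, mark ENSRNOT00000012381 at -5.14 and ENSRNOT00000009705 at -2.92, and the dashed line with an arrow marks the bound for ENSRNOT00000010634 at -3.38 (no count added), whose old liver libraries hold 0 counts.

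The contrast on which the members stood out sets the age effect in liver against that in brain. In RNA-seq edgeR called all 4, which restates the choice, and 1.02% of all 14762 transcripts. Of the members 3 were lower, against 0.671% of all, and 1 was higher, against 0.352%. The age effect in liver minus that in brain was -6.64 on the log2 scale for ENSRNOT00000010634 (SE 0.724), -4.63 for ENSRNOT00000012381 (SE 0.768), -2.82 for ENSRNOT00000009705 (SE 0.417) and 5.35 for ENSRNOT00000033784 (SE 1.0). The value of ENSRNOT00000010634 depends on the small count that edgeR adds to a group at 0. This transcript did not pass the filter in liver alone and entered this fit through its brain counts. In the liver fit with no filter its log2 fold change was -6.23 (SE 1.16). With the animal as a block 0 of the 4 were called by edgeR, although all 4 had an unadjusted p under 0.05, with log2 differences of -6.64, -4.65, -2.79 and 5.31 in that order. Of the 14762 transcripts 2 passed in that fit, and 2438 had an unadjusted p under 0.05. DESeq2 called all 4, among 1119 of all. Without old animal 1, young animal 2 or young animal 3, edgeR also called 0 of the 4, each time with all 4 at an unadjusted p under 0.05. In each of these 3 fits 1 of all transcripts was called, and 2457, 1661 and 2091 had an unadjusted p under 0.05. The members' differences without old animal 1 were -6.59, -4.46, -2.84 and 5.49, without young animal 2 -6.64, -4.54, -2.60 and 4.72, and without young animal 3 -6.36, -5.24, -2.72 and 10.1. With old animal 2 left out, where 211 of all were called, the call was lost for ENSRNOT00000033784 (5.52). Leaving out old animal 3, where 59 were, lost it for ENSRNOT00000033784 (4.89) and ENSRNOT00000012381 (-5.57).

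In footprints the same contrast called 1 of the 4, ENSRNOT00000009705, at -3.07 (SE 0.407), where 0.0139% of 14440 transcripts were called, 0.00693% lower and 0.00693% higher. The footprint differences were -1.36 (SE 1.42) for ENSRNOT00000012381 and 2.74 (SE 1.58) for ENSRNOT00000033784. None is given for ENSRNOT00000010634, whose liver footprints came to 2 counts in all. The call for ENSRNOT00000009705 was lost with the animal as a block (-3.02) and without old animal 1 (-3.02), young animal 2 (-2.88) or young animal 3 (-2.90). Of all transcripts 4, 1, 1 and 0 were called in these fits. Within brain alone, edgeR called 0 of 4 members between the ages in RNA-seq, where 0.472% of all were called (0.315% higher and 0.157% lower). There 2 members had an unadjusted p under 0.05, as did 1954 of all 13986 transcripts. DESeq2 called 299 of all, and 0 of the 3 members to which it gave an adjusted p. In brain footprints edgeR called 1 of the 3 fitted, ENSRNOT00000009705, with a log2 fold change of -0.24 (SE 0.0577), where 1.71% were called (0.789% higher and 0.921% lower). That call was lost without old animal 1 (-0.23), old animal 3 (-0.24), young animal 2 (-0.27) or young animal 3 (-0.22), where 57, 135, 33 and 47 of all were called. ENSRNOT00000009705 was called in brain RNA-seq without young animal 1 (-0.17, against -0.13 with all libraries), among 1128 of 14141.

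The ratio of footprints to RNA within brain is not named in the rule for the members and was tested over the 12 brain libraries, averaged over the ages. The brain counts behind it were in view when the members were chosen, so its independence of that choice cannot be shown. ENSRNOT00000009705 carried more footprints for its RNA than the typical transcript, with a log2 ratio of 0.90 (SE 0.0380, edgeR adjusted p = 6.24e-13). The ratio was above 0 in each of the 6 animals, at 0.94, 0.76 and 0.82 in young and 0.68, 0.78 and 0.72 in old ones, as log2 of CPM + 0.5. ENSRNOT00000010634 carried fewer, with a log2 ratio of -0.33 (SE 0.0620, edgeR adjusted p = 0.000111), and was below 0 in all 6 animals (-0.57 to -0.27). In all, 73.7% of 14664 transcripts were called in this comparison, 37.2% higher and 36.5% lower, so a call by itself sets neither transcript apart.

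For the 2 trace transcripts of brain the ratio was not resolved. ENSRNOT00000012381 had -0.11 (SE 0.483, edgeR adjusted p = 0.847), and its animals ran from -1.90 to 0.73. ENSRNOT00000033784 had -0.96 (SE 0.510, edgeR adjusted p = 0.0977), with values of -1.42, -1.07 and -0.95 in young and -0.93, 0.39 and -0.18 in old animals. Its highest value was again in old animal 2. At 0 to 39 counts per brain library these errors are wide, and a missed threshold does not show that footprints and RNA were in the usual proportion.

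**Figure D5:**
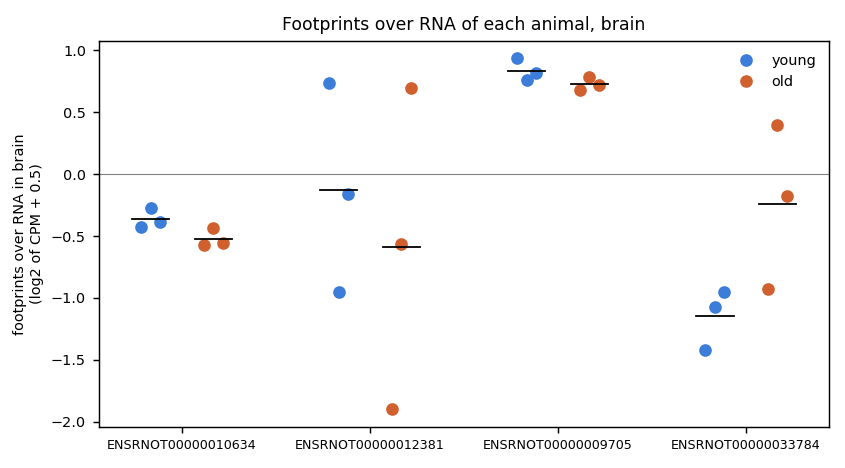
Log2 ratio of footprints to RNA in the brain of each animal (CPM + 0.5 in both), young in blue and old in orange, with the group mean as a black line and a grey line at 0. ENSRNOT00000009705 lies above 0 and ENSRNOT00000010634 below 0 in all 6 animals, while ENSRNOT00000012381 spreads from -1.90 to 0.73.

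The most similar transcript of each member was sought among 15641 others with at least 50 counts in all, by Pearson's r of log2(CPM + 0.5) over the 24 libraries, which share animals and depth. ENSRNOT00000010634 was most like ENSRNOT00000054779 (r = 0.998 over 24 libraries, 0.858 over the 12 liver libraries), whose summed liver RNA-seq counts were 17 in young and 1 in old animals. ENSRNOT00000009705 was most like ENSRNOT00000027054 (r = 0.994 and 0.806), which had 121 counts in young and 44 in old liver RNA-seq. The next most similar transcripts were as close, with r = 0.998 for the second and 0.997 for the tenth beside ENSRNOT00000010634, and 0.993 and 0.991 beside ENSRNOT00000009705, so neither named transcript is set apart. In both pairs the brain and liver libraries form separate clusters, so the r over 24 libraries describes mainly the gap between the organs.

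ENSRNOT00000033784 was most like ENSRNOT00000050725 (r = 0.905, and 0.954 in liver). That transcript was at 0.790 ± 0.168 CPM in the RNA-seq of young liver against 9.47 ± 7.58 CPM in that of old liver, and at 0.667 ± 0.336 and 9.17 ± 6.77 CPM in liver footprints (SD, n = 3). Its brain levels lay between 2.30 and 3.12 CPM in the 4 group means. ENSRNOT00000012381 had no close partner, its highest being ENSRNOT00000026909 at r = 0.726 and 0.564, which in liver RNA-seq had 22.5 ± 2.02 CPM (young) and 20.8 ± 0.963 CPM (old). These transcripts were picked for likeness, so their liver values are a description.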

How the data were processed

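The authors deposited whole-number counts per transcript for each library, not normalised as judged from the values, since the files have no header, beside an undefined length-like value that was not used. TopHat2 2.0.10, Bowtie 1.0.0.0, build rn4 and DESeq stand in the submitters' processing notes. The sources used here do not give the counting rule, annotation or handling of multi-mapping reads. Reads shared between transcripts of a gene could move such low counts. No other transcript had the same counts as a member in every library, but that cannot show whether reads were partly shared.

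Models were fitted in R 4.3.3 by edgeR 4.0.16 (robust quasi-likelihood, two-sided test, TMM factors, expression filter with minimum count 10 and minimum total 15, Benjamini-Hochberg over all transcripts fitted, adjusted p under 0.05), tested on simulated data. Age was compared over the 6 libraries of an organ and assay, the organs' age effects over 12 libraries, and footprints against RNA over the 12 brain libraries. Summed-count ratios have exact 95% intervals; these and the floor of 3 counts cover counting error only, since PCR reads without molecular identifiers are not independent molecules. The 3 replicates of each group, tested together, differed by more than counting noise, the lowest chi-square over its degrees of freedom being 3.17 (young brain RNA-seq). In young and old liver it was 16.9 and 34.4 in RNA-seq and 15.7 and 18.0 in footprints. Titles carry one animal code across organs and assays. Deviations from group means of the same animal correlated at 0.18 to 0.818 between the brain assays, -0.0566 to 0.187 between the organs in RNA-seq and -0.0147 to 0.129 in footprints, so fits with the animal as a block were run. Alternatives were DESeq2 1.42.0, median-ratio factors, no filter, a block and leaving out libraries. The named transcripts are the 4 members and the most similar one of each. The members and lists were chosen with earlier results of these data known.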

Additional observations from a re-analysis of the deposited data

Results flagged for a closer look

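The transcripts were chosen with the difference between the age effects in liver and brain in view, so that its being called by edgeR for all 4 in RNA-seq and for 1 in footprints (adjusted p under 0.05) restates the choice and is no evidence about them. The age effect in liver minus that in brain was -6.64 on the log2 scale for ENSRNOT00000010634, -4.63 for ENSRNOT00000012381, -2.82 for ENSRNOT00000009705 and 5.35 for ENSRNOT00000033784 in RNA-seq, and -3.07 for ENSRNOT00000009705 in footprints. All 5 calls were lost with the animal as a block.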

How the results depend on the processing

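Counts of called transcripts moved with the processing, as numbers over the whole table. For age in liver RNA-seq edgeR called 2, against 1083 with DESeq2, 143 with no filter, 79 with a replicate block and 0 to 641 with 1 library left out. In liver footprints it called 2, against 221, 53, 5 and 0 to 96 in that order. In brain RNA-seq it called 66, against 299 with DESeq2, 287 with a replicate block and 1 to 1128 with 1 library left out, and in brain footprints 232, against 383, 386 and 33 to 321. For the organs' age effects it called 151 in RNA-seq, against 1119 with DESeq2, 2 with the animal as a replicate block and 1 to 564 with 1 animal left out, and 2 in footprints, against 385, 4 and 0 to 91. Footprints against RNA in brain gave 10811, and 10299 to 10504 with 1 animal left out. Counts of 0 came without old animal 1, young animal 2 or young animal 3 in liver RNA-seq (2140, 1688 and 1979 at an unadjusted p under 0.05), without young animal 2 in liver footprints (838) and without young animal 3 for the organs' footprints (1301). The causes were not tested. The number blocks pair different animals of the 2 ages, with correlations of -0.072 to 0.186 between same-numbered libraries, and are no pairing.

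Among the members' fitted values under the alternatives, 192 kept direction and side of the threshold, 27 lost the call, 14 gained it and 5 turned. The turned values were all uncalled: the footprint age effect between organs of ENSRNOT00000010634 without young animal 2 (0.11, where all liver libraries are at 0 counts; range with 1 animal left out -3.54 to 0.11) and of ENSRNOT00000012381 without old animal 3 (0.41; -2.97 to 0.41), and footprints against RNA of ENSRNOT00000012381 without old animal 1 (0.19), old animal 2 (0.01) or young animal 2 (0.015; -0.73 to 0.19). All 32 group means differed by less than 1 SD between TMM-scaled and raw CPM. With factors over both organs, added after the data were seen, the young liver level as a share of brain moved from 91.6% to 218% for ENSRNOT00000012381 and from 8.57% to 20.3% for ENSRNOT00000033784 in RNA-seq, and in young footprints from 66.1% to 168% and from 51.4% to 133%. The order of the organs in young animals therefore depends on the scaling for ENSRNOT00000012381 in both assays and for ENSRNOT00000033784 in footprints. Depth limits the liver footprints of ENSRNOT00000010634, where 0 to 2 counts per library cannot show a difference.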
